A study of Mus musculus with 18 samples.

Results

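The genes examined encode the proteins that join epithelial cells to each other: claudins, cadherins, desmogleins, desmocollins, zonula occludens proteins and plakophilins, taken by the stem of their symbol and a number, together with Ocln, Dsp, Jup, F11r, Ctnna1, Ctnnb1 and Ctnnd1. The array measured 64 such genes with 86 probes, among 16675 genes in all, and 19 of the 64 had more than 1 probe. They were read in NMuMG cells, a line from normal mouse mammary gland with epithelial morphology, treated for 8 hr with 10 nM Halofuginone (HF) or with 10 nM MAZ1310, its inactive analog. Both agents were diluted in acidified DMSO and added shortly after plating to complete medium with serum and insulin, and no untreated or DMSO-only arrays were analysed here. Each treatment had 3 cultures and each culture 3 technical arrays, 18 arrays in all, and the 3 arrays of a culture were averaged so that n = 3 cultures per treatment.

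Epithelial cells are held together by tight junctions, adherens junctions and desmosomes. In tight junctions the claudins form the seal and its ion-selective pores, occludin (Ocln) and the junctional adhesion molecule F11r sit beside them, and zonula occludens proteins (Tjp) tie them to actin. In adherens junctions classical cadherins bind their like on the next cell, and beta-catenin (Ctnnb1), alpha-catenin (Ctnna1) and p120 catenin (Ctnnd1) link them to actin and hold them at the surface. In desmosomes the desmosomal cadherins (Dsg, Dsc) are bound through plakoglobin (Jup), plakophilins (Pkp) and desmoplakin (Dsp) to keratin filaments. E-cadherin (Cdh1) is the classical cadherin of mammary epithelium, and repressors of the Snail family bind E-box sequences in its promoter.

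Promoter sequences were available from RefSeq (build GRCm38.p6) for 37 of the 64 genes, with 51 start sites. Cdh1 was not among the 37, so its promoter was not searched. The 250 bases before each start were searched on both strands for CACCTG, the E-box bound by Snail-family repressors, for TGATGNAA, the core of the amino acid response element, and for AACCGGTT, the site of grainyhead-like factors. An E-box was present in 11 of the 51 promoters (21.57%), which belonged to 9 genes, against 17.22% of all 32851 promoters. The amino acid response element was present in 1 of the 51 (1.96%) against 3.45% of all, and the grainyhead site in 0 of the 51 against 0.12% of all. Below are the promoters of the 3 genes nearest the test threshold that the table holds (Cldn2, Cdh6 and Dsp), in which none of the motifs occurred, and those of F11r and Tjp3, in which the motifs are set in capitals. All are written 5′ to 3′ on the strand of the gene.
Cldn2 (chrX:139800558-139800807, plus strand): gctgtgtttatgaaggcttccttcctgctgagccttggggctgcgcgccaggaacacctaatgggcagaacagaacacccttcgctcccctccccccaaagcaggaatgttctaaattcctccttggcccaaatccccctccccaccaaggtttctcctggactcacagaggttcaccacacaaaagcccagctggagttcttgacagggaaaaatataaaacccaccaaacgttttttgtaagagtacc
Cdh6 (chr15:13173676-13173925, minus strand): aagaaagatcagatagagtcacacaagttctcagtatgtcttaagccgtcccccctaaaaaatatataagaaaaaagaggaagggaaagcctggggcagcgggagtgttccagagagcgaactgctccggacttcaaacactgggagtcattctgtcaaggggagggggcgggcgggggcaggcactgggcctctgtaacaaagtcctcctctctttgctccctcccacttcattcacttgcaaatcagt
Dsp (chr13:38151044-38151293, plus strand): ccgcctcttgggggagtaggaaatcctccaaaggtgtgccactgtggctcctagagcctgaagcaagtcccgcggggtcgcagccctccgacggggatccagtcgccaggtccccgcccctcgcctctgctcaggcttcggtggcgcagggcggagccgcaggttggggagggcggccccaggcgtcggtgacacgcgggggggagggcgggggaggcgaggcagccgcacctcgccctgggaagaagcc
F11r (chr1:171437311-171437560, plus strand): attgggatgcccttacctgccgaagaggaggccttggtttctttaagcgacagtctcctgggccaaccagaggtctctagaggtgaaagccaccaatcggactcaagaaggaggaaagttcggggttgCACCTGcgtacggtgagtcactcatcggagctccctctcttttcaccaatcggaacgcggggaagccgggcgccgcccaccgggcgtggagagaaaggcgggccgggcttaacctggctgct
Tjp3 (chr10:81291268-81291517, minus strand): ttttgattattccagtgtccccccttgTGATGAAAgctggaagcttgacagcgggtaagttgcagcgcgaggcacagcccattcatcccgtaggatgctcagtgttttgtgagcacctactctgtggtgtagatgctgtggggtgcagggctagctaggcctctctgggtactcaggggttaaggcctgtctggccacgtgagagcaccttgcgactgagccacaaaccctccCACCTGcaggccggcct
The E-box of F11r began 122 bases before the start site. In Tjp3 the amino acid response element began 223 bases before the start and the E-box 17 bases before it. Another Tjp3 start site in the table, not printed, had an E-box 108 bases before it and no amino acid response element. A match is a description of these letters and no test of binding.

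To say which junction genes the cells expressed, their intensities were set against 26 genes restricted to other tissues, such as liver, muscle, neuron and germ cell genes, because the table carries no detection calls. The dim reference level, the 90th percentile of those genes' MAZ1310 means, was 8.24 on the log2 scale, and their means ran from 5.91 to 9.46. In every MAZ1310 culture 20 of the 64 junction genes lay above that level. They comprised 6 of 21 claudins, 1 of 2 other tight junction membrane proteins, 1 of 2 zonula occludens proteins, 5 of 21 cadherins, all 3 catenins, 1 of 9 desmogleins and desmocollins, and 3 of 6 plaque proteins. The other 44 genes had at least 1 MAZ1310 culture at or below the level, which does not show that they were silent. Probes differ in their response to the same amount of RNA, so the dim reference level, which sets genes against other genes, is only a rough guide. Apart from that level and the choice of genes to name, levels are compared here between treatments and not between genes.

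The labelled epithelial identity was read from marker genes. Of 11 epithelial markers measured, 7 lay above the dim reference level, with the keratins Krt8 and Krt18 at mean log2 intensities of 15.94 and 15.93 in MAZ1310. Of these 11 markers 4 are themselves junction genes (Cdh1, Cldn3, Cldn4 and Cldn7). Tacstd1, the older symbol of the epithelial adhesion molecule Epcam, was below the level at 5.94, as were the claudins Cldn3 (7.18) and Cldn7 (7.74). Among 12 mesenchymal markers 4 lay above it, Vim at 15.95, S100a4 at 15.48 and the junction gene Cdh2 among them, while Col1a1 (6.55) and Pdgfra (5.83) did not. Krt8, Krt18 and Vim lay at or near the highest intensity on the arrays. Krt18 and Vim read 16.00 in every HF culture, Krt8 in HF cultures 2 and 3, and Vim in MAZ1310 culture 1. In MAZ1310 culture 2 Krt8, Krt18 and Vim had the same value, 15.86. A rise of these markers in HF could therefore not be read. The mean over the epithelial list ran from 11.06 to 11.14 in MAZ1310 cultures and from 11.19 to 11.34 in HF cultures, and 0 of its 11 genes passed the test below. Of these 11 genes 1, Krt19, had an unadjusted limma p under 0.05, higher in HF (log2 fold change 0.68, limma adjusted p = 0.2975). The mean over the mesenchymal list ran from 8.56 to 8.66 and from 8.51 to 8.58, and 1 of its 12 genes, S100a4, was lower in HF (log2 fold change -0.86, limma adjusted p = 0.0387, and 0.0848 to 0.133 without MAZ1310 replicate 2 or 3 or any 1 of the HF cultures). Of 6 basal or myoepithelial markers 2 lay above the level, Krt14 (9.32) and Myh11 (9.02), while Krt5 (6.93) and Trp63 (6.42) did not. Of these 6 markers 0 passed the test, and 1, Trp63, had an unadjusted limma p under 0.05. Of 7 endothelial markers 1, Tie1 (8.68), lay above the level, and of 5 blood markers 2 did, Cd79a (9.46) and Itgam (9.01), while endothelial Cdh5 (7.49) and Pecam1 (8.20) and blood Ptprc (5.99) were below it. The blood marker Cd3e had a mean of 8.91 but not every culture above the level, and Cd79a and Cd3e are themselves among the reference genes. None of the endothelial or blood markers passed the test in limma, and 0 of them had an unadjusted p under 0.05. The part of any of these shifts in the junction genes was not tested.

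None of the 64 junction genes passed the test of HF against MAZ1310. The test was limma on culture means with Benjamini-Hochberg adjustment over all 16675 genes and a threshold of 0.05, and it called 242 genes higher (1.45%) and 262 lower (1.57%), 504 in all (3.02%). At an unadjusted p under 0.05 there were 8 junction genes, 6 higher and 2 lower in HF, against 2746 of all genes (16.5%). The 3 HF cultures did not overlap the 3 MAZ1310 cultures in 13 junction genes, 8 higher and 5 lower, against 3505 of all genes (21.0%). Neither share of the junction genes was above that of all genes.

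The log2 fold changes of the 64 genes ran from -0.67 to 0.88 with a median of 0.04, where the median over all genes was 0.00, and 38 were positive and 26 negative. For 55 of the 64 genes the 95% confidence interval of the difference lay within 2-fold in either direction, and for 9 it reached 2-fold. Of the 20 genes above the dim reference level, 12 had intervals within 2-fold and 8 reached it. The median standard error (SE) of these differences was 0.16 over the junction genes, against 0.18 over all genes. In bulk RNA, fewer cells expressing a gene and less of its RNA per cell cannot be told apart.

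**Figure D1:**
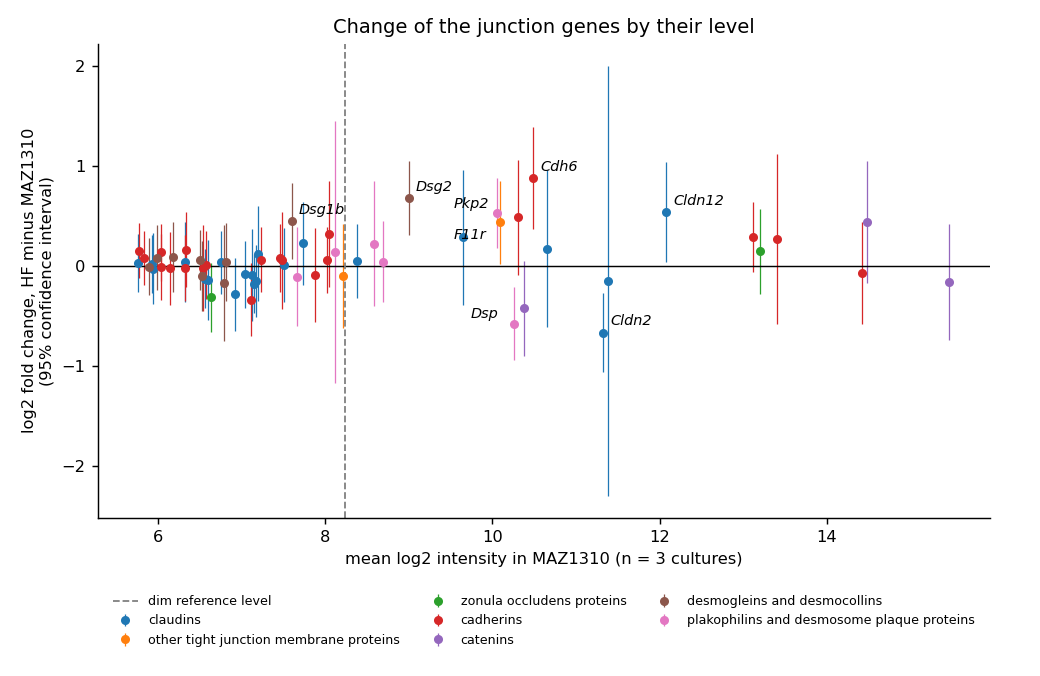
Log2 fold change (HF minus MAZ1310) of each of the 64 junction genes against its mean log2 intensity in MAZ1310 (n = 3 cultures), colored by protein family, with 95% confidence intervals from limma and the dim reference level as a dashed line. The 8 genes with an unadjusted p under 0.05 are named, and all but Dsg1b lie to the right of the dashed line.

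Among the tight junction genes, Cldn2 and Cldn12 were nearest the threshold and pointed in opposite directions. Claudin-2 forms a pore for cations and water. Cldn2 had log2 intensities of 11.42, 11.38 and 11.16 in MAZ1310 cultures 1 to 3 and of 10.94, 10.49 and 10.54 in HF cultures 1 to 3. All HF cultures were below all MAZ1310 cultures, by 1.59-fold on average (log2 fold change -0.67, SE 0.17, limma adjusted p = 0.0887). Cldn12, a claudin that lacks the usual PDZ-binding end, had values of 11.93, 12.09 and 12.22 in MAZ1310 and 12.22, 12.65 and 13.00 in HF. Its lowest HF culture and its highest MAZ1310 culture were at about the same level, and its log2 fold change was 0.54 (SE 0.21, limma adjusted p = 0.259). F11r, the adhesion molecule JAM-A, had values of 9.98, 9.99 and 10.32 in MAZ1310 and 10.26, 10.73 and 10.61 in HF. One MAZ1310 culture, replicate 3, lay just above the lowest HF culture, and the log2 fold change was 0.44 (SE 0.18, limma adjusted p = 0.272).

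The other claudins above the dim reference level overlapped between treatments. Cldn4, a sealing claudin, had values of 11.11, 10.89 and 9.97 in MAZ1310 and 10.94, 11.17 and 10.38 in HF, with replicate 3 lowest in both. Its log2 fold change was 0.18 (SE 0.33), and it was -0.17 without MAZ1310 replicate 3 and -0.02 with the median of technical arrays. Cldn14, whose loss causes deafness, had the widest change among claudins that missed an unadjusted p of 0.05, with a log2 fold change of 0.29 (SE 0.29, limma adjusted p = 0.771), and its values were 10.30, 9.22 and 9.44 in MAZ1310 and 10.08, 10.08 and 9.67 in HF. The HF cultures lay within or near the range of the MAZ1310 cultures in both genes. Cldn9 lay just above the dim reference level, with values from 8.28 to 8.54 in MAZ1310 and from 8.28 to 8.67 in HF. Cldn17, an anion-pore claudin, spread more between cultures than between treatments, with values of 9.59, 12.78 and 11.79 in MAZ1310 and 9.78, 12.44 and 11.50 in HF. Replicate 1 was lowest and replicate 2 highest in both treatments, and its log2 fold change was -0.15 with a SE of 0.92. The 15 claudins not above the dim reference level, Cldn1, Cldn3, Cldn5 and Cldn7 among them, had log2 fold changes between -0.28 and 0.23 and a smallest unadjusted limma p of 0.111.

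The tight junction scaffold showed no difference beyond its spread. Tjp1, which encodes ZO-1, had values of 13.36, 13.06 and 13.18 in MAZ1310 and 13.69, 13.19 and 13.16 in HF, and its log2 fold change of 0.15 had a 95% confidence interval from -0.28 to 0.58 (limma adjusted p = 0.826). Tjp3, which encodes ZO-3, was below the dim reference level and had values of 6.79, 6.45 and 6.65 in MAZ1310 and 6.16, 6.39 and 6.40 in HF. All its HF cultures were lower, by a small margin, and its log2 fold change was -0.31 (SE 0.15, limma adjusted p = 0.366). Ocln, at 7.89, 8.19 and 8.56 in MAZ1310 and 7.96, 7.94 and 8.44 in HF, was close to the dim reference level and overlapped between treatments (log2 fold change -0.10, SE 0.22, limma adjusted p = 0.922).

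**Figure D2:**
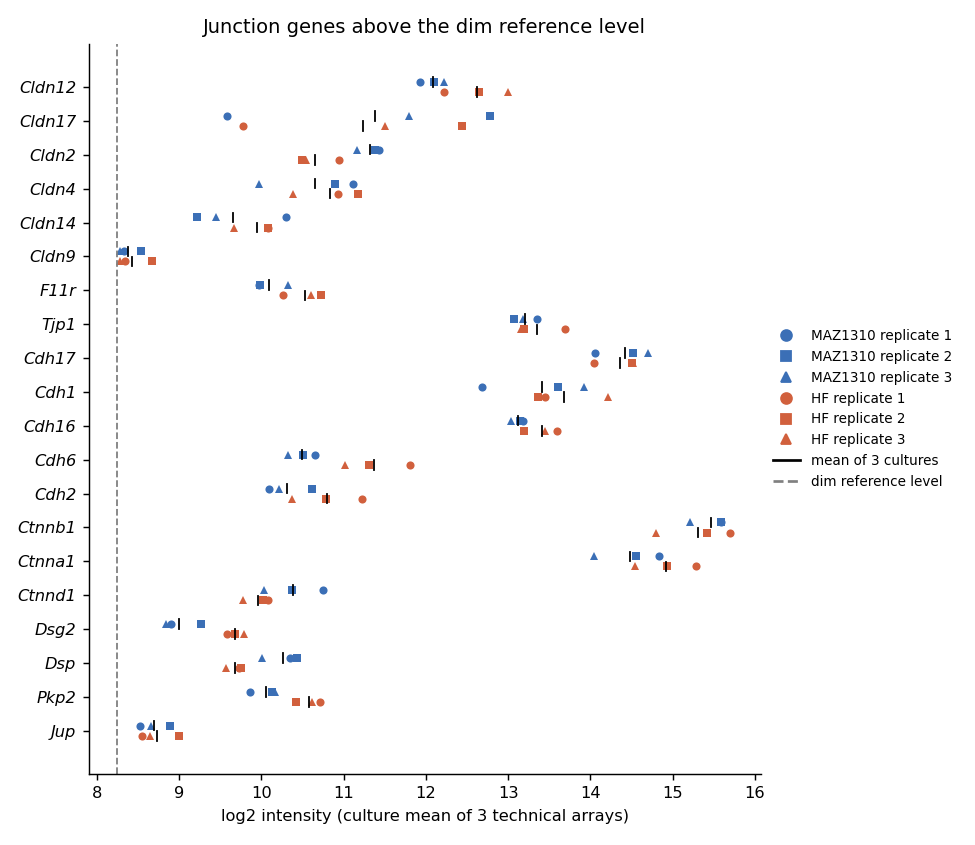
Log2 intensity of the 20 junction genes above the dim reference level (dashed line), with 1 symbol per culture (mean of 3 technical arrays, shape by replicate number, color by treatment) and a bar at the mean of 3 cultures. The HF symbols lie clear of the MAZ1310 symbols for Cldn2, Cdh6, Dsg2, Dsp and Pkp2, and the symbols of Cldn17 follow the replicate number. For Cdh16 the lowest HF symbol (13.20) and the highest MAZ1310 symbol (13.18) almost meet.

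Among the cadherins, Cdh6 had the largest difference of all 64 junction genes. Cdh6, a classical cadherin first described in kidney, had values of 10.65, 10.50 and 10.32 in MAZ1310 and 11.80, 11.30 and 11.01 in HF. Every HF culture was above every MAZ1310 culture, by 1.84-fold on average (log2 fold change 0.88, SE 0.22, limma adjusted p = 0.0841). E-cadherin itself overlapped between treatments. Cdh1 had values of 12.69, 13.61 and 13.93 in MAZ1310 and 13.45, 13.37 and 14.22 in HF, and its log2 fold change of 0.27 had a 95% confidence interval from -0.58 to 1.12 (limma adjusted p = 0.844). The interval covers both a fall by less than 2-fold and a rise by more than 2-fold. N-cadherin, Cdh2, which mesenchymal and neural cells use, had values of 10.09, 10.61 and 10.21 in MAZ1310 and 11.22, 10.78 and 10.37 in HF. Its HF replicate 3 lay below the highest MAZ1310 culture, and its log2 fold change was 0.49 (SE 0.24, limma adjusted p = 0.407).

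The remaining expressed cadherins were Cdh16 and Cdh17, which differ from classical cadherins in having a short cytoplasmic end that does not bind catenins. Cdh16 had values of 13.18, 13.15 and 13.03 in MAZ1310 and 13.60, 13.20 and 13.44 in HF. The HF cultures lay above the MAZ1310 cultures by a margin smaller than either group's range, and the log2 fold change was 0.29 (SE 0.15, limma adjusted p = 0.411). Cdh17 had values of 14.05, 14.52 and 14.70 in MAZ1310 and 14.04, 14.51 and 14.52 in HF. The treatments almost coincided, with a log2 fold change of -0.07 (SE 0.22, 95% confidence interval from -0.58 to 0.44). The 16 cadherins not above the dim reference level, which include P-cadherin (Cdh3) and the mesenchymal cadherin Cdh11, had log2 fold changes between -0.33 and 0.32.

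The 3 catenins were above the dim reference level and none separated the treatments. Ctnnb1, which also carries Wnt signals to the nucleus, had values of 15.59, 15.59 and 15.22 in MAZ1310 and 15.70, 15.41 and 14.80 in HF (log2 fold change -0.16, SE 0.25, limma adjusted p = 0.869). Ctnna1 had values of 14.83, 14.55 and 14.05 in MAZ1310 and 15.28, 14.93 and 14.54 in HF, a log2 fold change of 0.44 (SE 0.26, limma adjusted p = 0.513). In both genes replicate 3 was lowest in either treatment. Ctnnb1 read 15.9966 on technical array 3 of MAZ1310 replicate 2, near the highest intensity in the data. Whether its readings were limited there was not tested. Ctnnd1, which keeps cadherins at the cell surface, had values of 10.75, 10.37 and 10.03 in MAZ1310 and 10.08, 10.02 and 9.78 in HF. Only HF replicate 1 lay above the lowest MAZ1310 culture, and the log2 fold change was -0.42 (SE 0.20, limma adjusted p = 0.377).

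Of the 9 desmogleins and desmocollins and the 6 plaque genes, 4 had an unadjusted p under 0.05, beside 16.5% of all genes. They pointed both ways, and no test compared desmosome genes with other genes. Dsg2, the desmoglein that simple epithelia use, had values of 8.90, 9.26 and 8.84 in MAZ1310 and 9.59, 9.68 and 9.78 in HF. Its HF cultures were all higher, by 1.60-fold on average (log2 fold change 0.68, SE 0.16), and its limma adjusted p of 0.0707 was the smallest of the 64 genes. Pkp2, the plakophilin of simple epithelia and heart, had values of 9.86, 10.13 and 10.17 in MAZ1310 and 10.71, 10.43 and 10.61 in HF. The treatments again did not overlap, with a log2 fold change of 0.53 (SE 0.15, limma adjusted p = 0.118). Dsp, the plaque protein that binds keratin filaments, had values of 10.34, 10.43 and 10.01 in MAZ1310 and 9.73, 9.75 and 9.57 in HF. All HF cultures were lower, by 1.49-fold on average (log2 fold change -0.58, SE 0.16, limma adjusted p = 0.106).

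Dsg1b, one of the mouse copies of the desmoglein of stratified epithelia, was not above the dim reference level, with values of 7.72, 7.34 and 7.74 in MAZ1310 and 7.94, 8.02 and 8.19 in HF. Its HF cultures were all higher (log2 fold change 0.45, SE 0.16, limma adjusted p = 0.21), but its close relatives may share its probes' targets. Dsg1c had a log2 fold change of -0.17 (SE 0.25) and Dsg1a of -0.01 (SE 0.12). No desmocollin was above the dim reference level, and Dsc1, Dsc2 and Dsc3 had log2 fold changes of 0.08, 0.09 and -0.10. In the plaque, Jup, which both desmosomes and adherens junctions use, had values of 8.52, 8.89 and 8.65 in MAZ1310 and 8.55, 8.995 and 8.65 in HF. The ranges of the treatments nearly coincided, with a log2 fold change of 0.04 (SE 0.17). Jup's value combines 2 probes that pointed in opposite directions, given below. Pkp4, a relative of p120 catenin, had values of 9.15, 8.55 and 8.06 in MAZ1310 and 8.68, 8.81 and 8.95 in HF and a log2 fold change of 0.22 (SE 0.27, limma adjusted p = 0.82). Its HF cultures all lay inside the range of the MAZ1310 cultures. Pkp1, the plakophilin of stratified epithelia, had values of 7.25, 8.75 and 8.35 in MAZ1310 and 7.34, 9.33 and 8.09 in HF. It followed the replicate number in both treatments as Cldn17 did, with replicate 1 lowest and replicate 2 highest, and its log2 fold change was 0.14 (SE 0.56).

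**Figure D3:**
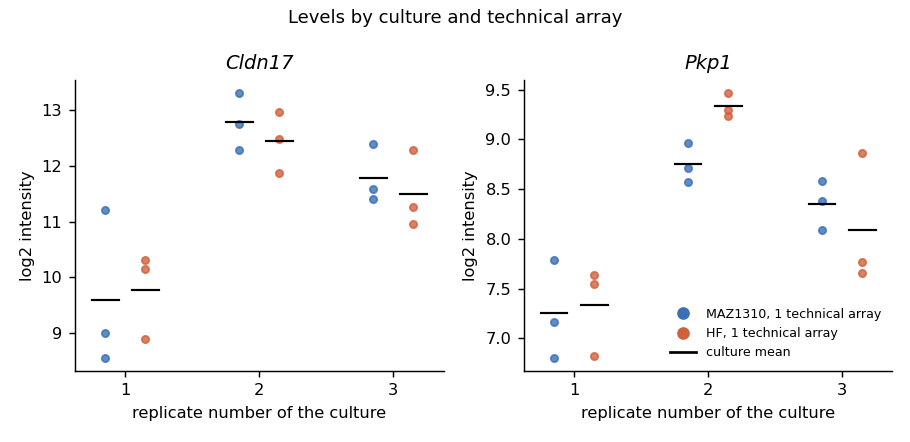
Log2 intensity of Cldn17 and Pkp1 on each technical array (points, 3 per culture, colored by treatment) by the replicate number of the culture, with a bar at each culture's mean. Replicate 1 is lowest and replicate 2 highest in both treatments.

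Where a gene had several probes, its value was the median over them, and the probes of Cldn2 did not move together. The brighter Cldn2 probe had log2 intensities of 13.52, 14.01 and 13.93 in MAZ1310 and 12.56, 12.24 and 12.71 in HF. The dimmer Cldn2 probe had values of 9.33, 8.75 and 8.38 in MAZ1310 and 9.32, 8.74 and 8.36 in HF. The brighter probe was lower in every HF culture by more than the range of either treatment, while the values of the dimmer probe almost coincided between treatments. When each of the 21973 probes was tested on its own, a test added after the data had been seen, limma called 491 probes (2.23%) and 1 of the 86 junction probes. That was the brighter Cldn2 probe, which fell in HF by 1.32 on the log2 scale (SE 0.20, limma adjusted p = 0.0266). For the dimmer probe the log2 fold change was -0.01 (SE 0.31). What part of the transcript each probe reads is not given in the sources used here, and the cause of the difference between them was not tested.

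The probes of the desmosome genes Dsg2, Dsp and Pkp2 pointed the same way within each gene. The log2 fold changes were 0.93 and 0.43 for the brighter and the dimmer probe of Dsg2, -0.72 and -0.43 for those of Dsp, and 0.58 and 0.47 for those of Pkp2. The dimmer Dsg2 and Dsp probes had MAZ1310 means of 7.37 and 7.02, below the dim reference level. The 3 probes of Dsg1b disagreed, with log2 fold changes of -0.17, 0.45 and -0.16 from the brightest to the dimmest, and the gene's median lay close to the middle probe. Of the other genes above the dim reference level with more than 1 probe, the 3 probes of Cdh2 had log2 fold changes of 0.24, 0.47 and 0.43, those of Ctnnd1 -0.34 and -0.50, and those of Jup 0.23 and -0.14. The brighter Jup probe had a MAZ1310 mean of 11.21 and the dimmer 6.16, below the dim reference level.

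**Figure D4:**
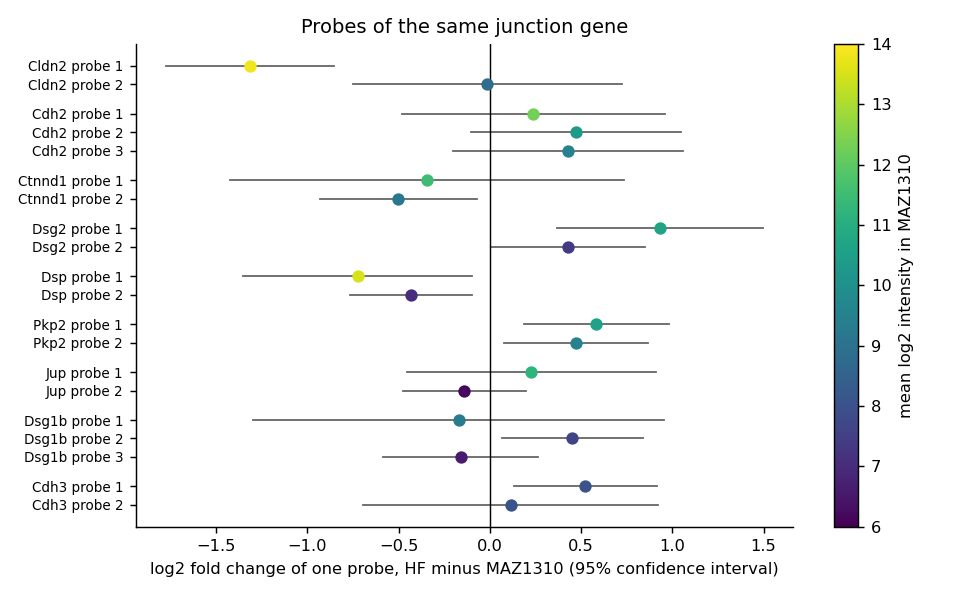
Log2 fold change of each probe (HF minus MAZ1310, with its 95% confidence interval) for the genes above the dim reference level that have more than 1 probe, and for Dsg1b and Cdh3, colored by the probe's mean log2 intensity in MAZ1310 (n = 3 cultures per treatment). The brighter Cldn2 probe stands at -1.32 and the dimmer at -0.01, while both probes of Dsg2, Dsp and Pkp2 lie on one side of 0.

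Around these members stands a wider set of junction and polarity genes: nectins and afadin, tight junction scaffolds, polarity complexes, desmosome-associated proteins and connexins. The list held 77 symbols, with some genes under both an old and a new name, so 77 overstates the genes sought. Of the 77 symbols 60 were measured, with 2 higher in HF, 1 lower and 57 not past the test, and a median log2 fold change of 0.01. Cxadr, the coxsackie and adenovirus receptor, which is a tight junction adhesion protein, had values of 10.21, 10.74 and 10.74 in MAZ1310 and 11.61, 11.79 and 12.002 in HF. It rose 2.37-fold (log2 fold change 1.24, SE 0.19, limma adjusted p = 0.0256). Its probes rose unequally, with log2 fold changes of 0.53 for the brighter and 1.96 for the dimmer. Pvr, a nectin-like adhesion protein, had values of 8.95, 8.37 and 8.69 in MAZ1310 and 9.50, 9.50 and 9.56 in HF. It rose 1.80-fold (log2 fold change 0.85, SE 0.17, limma adjusted p = 0.0482). Ppl, periplakin, which links desmosomes to keratin filaments, had values of 12.61, 12.52 and 12.82 in MAZ1310 and 11.24, 11.88 and 11.81 in HF. It fell 2.01-fold (log2 fold change -1.01, SE 0.20, limma adjusted p = 0.0478), and all HF cultures were below all MAZ1310 cultures. These calls depended on which cultures were kept. With any 1 of the 6 cultures left out, Ppl did not pass, and Cxadr and Pvr passed only without MAZ1310 replicate 1, with limma adjusted p from 0.0359 to 0.0977 for Cxadr, 0.088 to 0.146 for Ppl and 0.0391 to 0.149 for Pvr, while the log2 fold changes stayed within 1.07 to 1.34, -1.13 to -0.80 and 0.70 to 0.99. With the brightest probe alone, the log2 fold change of Cxadr was 0.53 (limma adjusted p = 0.287).

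At an unadjusted p under 0.05 the wider set held 17 of 60 genes, 8 higher and 9 lower, beside 16.5% of all genes, and no test compared the set with other genes. Nearest to the threshold, and named after their values were seen, were Gja1, a widely expressed connexin of gap junctions, with a log2 fold change of -0.87 (SE 0.18, limma adjusted p = 0.0524), and Vcl, vinculin, which couples catenins to actin, with -0.82 (SE 0.18, limma adjusted p = 0.0649). Among 19 measured transcriptional regulators of junction genes, 1 passed the test. Snai2, an E-box repressor of Cdh1, had values of 6.93, 6.79 and 7.24 in MAZ1310 and 8.19, 8.63 and 9.02 in HF and passed as higher in HF (fitted log2 difference 1.63, SE 0.23, limma adjusted p = 0.0217). Its MAZ1310 cultures were below the dim reference level and 2 of its 3 HF cultures above it, so the size of the difference is not given as a fold. Its limma adjusted p was 0.0904 without MAZ1310 replicate 2, 0.0555 without MAZ1310 replicate 3, 0.0906 without HF replicate 2, 0.0536 without HF replicate 3 and 0.0635 with the median of technical arrays, where its fitted log2 differences stayed between 1.42 and 1.75. Zeb2, another E-box repressor, named after its values were seen, had values of 7.35, 7.73 and 8.14 in MAZ1310 and 8.41, 8.96 and 9.51 in HF. Its cultures did not overlap and it did not pass (log2 fold change 1.22, SE 0.31, limma adjusted p = 0.0935), also from MAZ1310 cultures below the dim reference level. That value is the median over 3 Zeb2 probes, which all pointed up. The brightest of them had a MAZ1310 mean of 9.02, above the level. Tested on its own, it had a log2 fold change of 1.08 (limma adjusted p = 0.0548). Cdh1 did not pass the test in the same cultures.

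**Figure D5:**
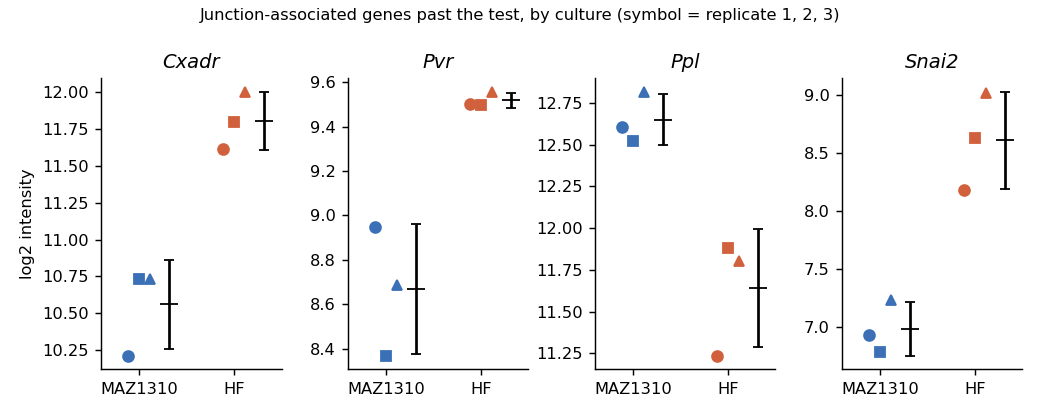
Log2 intensity by culture (1 symbol per culture, shape by replicate number) of Cxadr, Pvr, Ppl and Snai2 in MAZ1310 and HF, with the mean and SD of 3 cultures beside the symbols and an axis of its own for each gene. HF symbols lie above MAZ1310 symbols for Cxadr, Pvr and Snai2 and below them for Ppl.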

How the data were processed

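RNA of NMuMG cells was hybridized to Phalanx Mouse Whole Genome OneArrays with 1 dye. The deposited values are intensity values on a linear scale. The authors dropped every probe with a missing or negative reading and applied quantile normalization to the other 21973. Array medians ran from 249.7 to 251.2. The scanner and background correction are not given in the sources used here. Platform annotation gave 21020 probes 1 gene symbol, 0 several and 953 none.

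Log2 intensities were summarized by the median over probes and the mean over the technical arrays of a culture, and the treatments were compared by a two-sided moderated test in limma 3.58.1 under R 4.3.3, without covariates, and p-values were adjusted over all genes after Benjamini and Hochberg. An exact permutation test of 3 against 3 cultures cannot go below p = 0.1. Pearson correlations between arrays ran from 0.897 to 0.987. Median SDs of the junction genes were 0.23 between single technical arrays of a culture and 0.18 between culture means of 3 arrays. Averaging over arrays lowers the spread of culture means, so these SDs are not directly comparable. The number of cultures limits the precision. No junction probe reached 65535, the highest intensity in the data, on any array. Whether a junction probe reached an array's own highest value, where that was lower, was not examined.

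The text names junction genes with an unadjusted p under 0.05, the 2 with the highest MAZ1310 mean and the one with the largest other change in each family, those above the dim reference level, and genes of the other lists with an adjusted p under 0.05. The members and lists were chosen with earlier results of these data known. Scripts were tested on simulated data. Alternatives covered scaling, dim genes, probe and technical array summaries, the block, eBayes options, adjustment and each culture left out. Of RefSeq genes under the same naming rule, Cdh12, Cdh19, Cldn20, Cldn24, Cldn34a and Cldn34d were not analysed here.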

Additional observations from a re-analysis of the deposited data

Results flagged for a closer look

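For the 25 junction genes named, the 9 arrays of each treatment were searched for a single array far from the others, 50 groups of 9 arrays in all, and 2 were found. Among independent values chance marks about 1 in 20 such groups, but the 3 arrays of a culture are not independent. In Pkp2, technical array 1 of MAZ1310 replicate 1 had a log2 intensity of 9.24, while the next lowest array of that treatment had 9.88 and the highest 10.31, a gap of 0.596 of the whole range. It is 1 of the 3 arrays averaged in that culture, and with the median of technical arrays the log2 fold change of Pkp2 was 0.40 (limma adjusted p = 0.272) in place of 0.53. In Cldn4, technical array 2 of MAZ1310 replicate 3 had a log2 intensity of 9.01, while the next lowest array had 10.32 and the highest 11.32, a gap of 0.566 of the range, and with the median of technical arrays the log2 fold change of Cldn4 was -0.02 in place of 0.18.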

How the results depend on the processing

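The count of 0 junction genes higher in HF became 1 with the 18 arrays fitted and the culture as a random block (Dsg2). The count of 0 lower became 1 with the brightest probe of each gene (Cldn2), 1 with each probe tested on its own, an alternative chosen after seeing the data (the brighter Cldn2 probe), and 2 with the 18 arrays (Cldn2 and Dsp). Leaving out each culture in turn called 0 junction genes, while 48 to 339 of all genes were called. The 3 calls in the wider junction and polarity set became 1 with the brightest probe, 1 with the median of technical arrays, 1 with robust eBayes, 6 with the 18 arrays, and 0 to 2 when a culture was left out. Over all genes the 18 arrays gave 1128 calls, against 322 with the median of technical arrays. The sign turned with the median of technical arrays for Cldn17 (0.19), Cldn4 (-0.023) and Cldn9 (-0.025), and for Dsg1b with its brightest probe (-0.17). With each culture left out in turn, log2 fold changes crossed 0 for Cdh1 (-0.0896 to 0.53), Cdh17 (-0.25 to 0.0882), Cldn17 (-1.05 to 0.58), Cldn4 (-0.17 to 0.40), Cldn9 (-0.0677 to 0.13), Ctnnb1 (-0.36 to 0.0903), Dsg1c (-0.36 to 0.0366), Jup (-0.0884 to 0.14), Ocln (-0.26 to 0.0748), Pkp4 (-0.0395 to 0.51) and Tjp1 (-0.0233 to 0.24), none of which was called. Cldn2 kept its sign under every alternative (-1.32 to -0.58), as did Cdh6 (0.67 to 1.06), Dsg2 (0.60 to 0.93), Dsp (-0.72 to -0.49) and Pkp2 (0.40 to 0.61). The count of 20 genes above the dim reference level ran from 16 to 22. The cause of these differences was not tested.

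With the replicate number as a block, 3 junction genes were called higher (Cdh6, Ctnna1 and Dsg2) and 2 lower (Cldn2 and Dsp), beside 10 of the wider set and 1792 of all genes (10.7%). Deviations of same-numbered cultures from their group means correlated at 0.672, 0.079 and 0.69 for numbers 1 to 3, and MAZ1310 culture 2 correlated best with HF culture 3 (0.265), so pairing was not established and the fit without the block is reported.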

Other observations

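Over all 16675 genes, 4 had culture means of replicates 1 and 2 more than 2 log2 units apart in the same direction in both treatments, and Cldn17 was one of them.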
